A study of Astyanax mexicanus with 12 samples.

Results

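The genes described here are 200 genes whose transcripts became more abundant in the liver between 5 and 7 days post-fertilization (dpf) in both surface fish and Tinaja cavefish of the Mexican tetra, Astyanax mexicanus. RNA was sequenced from livers dissected from larvae of the river-dwelling surface morph and of the blind Tinaja cave morph. The labels give 4 groups of 3 libraries: surface fish at 5 dpf, surface fish at 7 dpf, Tinaja at 5 dpf and Tinaja at 7 dpf, each library holding the pooled livers of 40 larvae. The labels name no transgene or drug in any group, embryos of several parent tanks were mixed, and the 7 dpf larvae had been fasted. The study calls the 5 dpf larvae fed and the 7 dpf larvae fasting, so age and feeding state cannot be told apart here. From earlier work it puts the end of visible yolk regression before 5 dpf in surface fish and later, after 5 dpf, in cavefish. The morphs may thus differ in yolk at 5 dpf, and the part of this in the comparisons between them was not tested. Each p-value measures the spread between pools, which may be technical.

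The members were chosen from the counts themselves. Reads per gene were turned into log2 CPM (counts scaled to library size with trimmed mean of M values factors, prior count of 2), and the change from 5 to 7 dpf was taken as the difference of the group means. A gene qualified with a mean log2 CPM under 10, a rise of at least 0.8 in each morph and, within each morph, all 3 libraries at 7 dpf above all 3 at 5 dpf, which by itself held for 20.2% of all genes tested in surface fish and 10.1% in Tinaja. Of 27420 gene identifiers 17540 had enough reads to be tested, 2031 met the conditions in surface fish, 757 met them in Tinaja and 357 met them in both. These 357 genes were 17.6% of the surface list and 47.2% of the Tinaja list. The 200 with the largest value of the smaller of the 2 rises are the members. The last 5 genes inside this limit had a smaller rise of 1.08 to 1.09 on the log2 scale and the first 5 outside it 1.08 each, so the limit divides a continuum. By the mirrored conditions 757 genes fell in both morphs.

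In the liver of vertebrates, the change from feeding to fasting is known to shift hepatocytes from storing nutrients to releasing them. Falling insulin and rising glucagon and glucocorticoids act through transcription factors on genes of gluconeogenesis, fatty acid oxidation, amino acid breakdown and autophagy, while genes of lipid synthesis and growth are turned down. In fish larvae left without food this change comes when the yolk is used up. The identifiers could not be paired with gene names, since 0 of the 27420 matched the table of RefSeq genes of the surface fish assembly, so it is not known here which of these processes the members serve. For the same reason the identity of the tissue was not checked against liver markers, and markers of blood, pancreas, gut or immune cells were not read. In such pooled tissue, more cells of a type and more RNA per cell cannot be told apart.

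The libraries held 10.6 to 23.6 M counts in genes. Reads outside annotated genes were at 27.2% to 34.3% in surface fish at 5 dpf and at 21.0% to 22.7% at 7 dpf, and at 19.9% to 30.0% and 23.1% to 27.4% in Tinaja. Over the members, Tinaja 7 dpf replicates 1 and 2 lay at opposite ends of their group. Several main counts are given with and without replicate 1, and some of these were not computed without replicate 2. Leaving out replicate 1 or 2 moved the median Tinaja rise of edgeR in opposite directions, to 1.26 and 1.79 from 1.63 log2 units.

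The members took a small share of the reads at 5 dpf and a several-fold larger one at 7 dpf. In surface fish the 200 genes together held 1.47%, 1.53% and 1.21% of the counts in replicates 1, 2 and 3 at 5 dpf, and 4.97%, 5.83% and 4.95% at 7 dpf. In Tinaja they held 1.42%, 0.948% and 1.45% at 5 dpf, and 4.69%, 2.89% and 3.83% at 7 dpf. All 6 fasted libraries lay above all 6 younger ones, which the choice of members fixes within each morph, and the morphs overlapped at 5 dpf but not at 7 dpf, where surface fish were higher. The group means were 1.4% ± 0.173 and 5.25% ± 0.506 in surface fish and 1.27% ± 0.282 and 3.8% ± 0.901 in Tinaja (SD, n = 3). No single transcript carried the sum. The most abundant member of a library held 4.75% to 10.0% of the members' counts and the 10 most abundant held 32.1% to 43.1%.

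**Figure D1:**
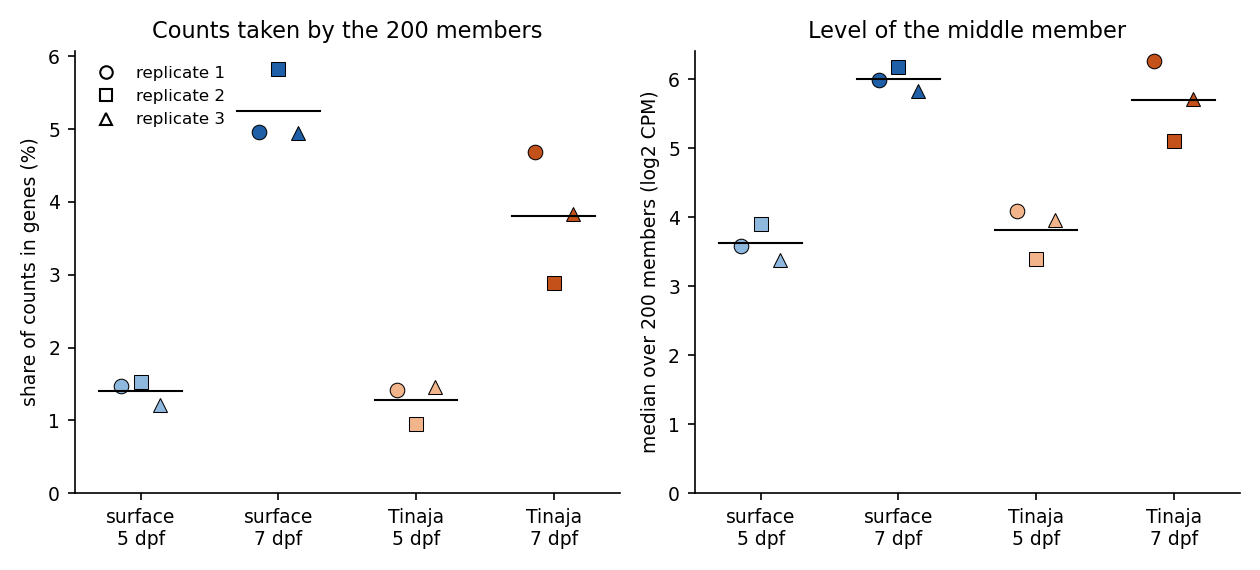
The left panel plots, for each of the 12 libraries, the percent of counts in genes that fell to the 200 members, and the right panel the median of the members' log2 CPM. Symbols are replicates and lines are group means (n = 3); at 7 dpf the Tinaja libraries spread from 2.89% to 4.69% of counts, and the surface libraries from 4.95% to 5.83%.

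The members covered nearly the whole range of abundance below the limit. Their mean log2 CPM ran from -1.38 to 9.96 with a median of 4.69, against a median of 2.99 over all genes tested. By abundance, 11 members lay at or under a mean log2 CPM of 0, 24 between 0 and 2, 47 between 2 and 4, 54 between 4 and 6, 39 between 6 and 8 and 25 between 8 and 10. The last 25 took 63.6% of the members' counts in surface fish at 7 dpf and 59.3% in Tinaja. Over members, the median of the group mean level at 5 dpf was 12.5 CPM in surface fish and 14.4 CPM in Tinaja. At 7 dpf it was 69.4 and 58.0 CPM. With the TMM factors used here, the median over all genes tested was between 8.06 and 8.56 CPM in each group, a near constancy that this scaling favors. Members under 1 CPM numbered 24 in surface fish and 25 in Tinaja at 5 dpf, and 2 and 4 at 7 dpf. Members over 100 CPM numbered 31 and 39 at 5 dpf, and 89 and 77 at 7 dpf. The size of the rise did not go with abundance in a single direction: the median rise over the classes ran from 1.98 to 2.37 in surface fish and from 1.36 to 1.66 in Tinaja on the log2 scale.

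With TMM factors the rise was larger in surface fish than in Tinaja for most members, and with library totals it was not. On the log2 CPM scale, the rise in surface fish ran from 1.14 to 8.23 with a median of 2.19, and that in Tinaja from 1.08 to 8.03 with a median of 1.53. It was larger in surface fish for 160 of the 200 genes, against 8776 of all 17540 genes. When libraries were scaled by their totals alone it was larger for 96 of 200, against 23.5% of all genes. That scaling gave the members a median rise of 1.47 in surface fish and 1.42 in Tinaja, while the median of all genes moved to -0.75 and -0.09. Without Tinaja 7 dpf replicate 1, on the same scaled values, the rise was larger in surface fish for 170 members and the median Tinaja rise was 1.22. Such counts were not computed without replicate 2 of that group, where the median Tinaja effect of edgeR moved the other way, to 1.79. With all libraries and TMM factors, the surface rise exceeded the Tinaja rise by over 1 log2 unit in 62 members (9.54% of all genes). It fell short of it by over 1 in 9 members (14.7% of all genes). In 81 members, or 40.5%, the rises were within 0.5 of each other, near the 44.3% of all genes. A rise of at least 2 log2 units was found for 116 members in surface fish and 57 in Tinaja, and one of at least 3 for 40 and 17. Without Tinaja 7 dpf replicate 1 the Tinaja counts were 38 and 11. These values chose the members, and the rule limits the smaller rise and not the larger, so they are a description without a test. In the fit across all genes with the quasi-likelihood test of edgeR and Benjamini-Hochberg adjustment at 0.1, 195 of the 200 passed in surface fish and 140 in Tinaja, all of them higher at 7 dpf. Of all genes tested 28.4% passed in surface fish (14.1% higher and 14.4% lower) and 6.97% in Tinaja (2.25% higher and 4.72% lower). Both calls were made for 137 members. Nothing is read from these counts, since the same contrasts chose the genes. The Tinaja count at the adjusted threshold moved with single libraries. Leaving out replicate 1, 2 or 3 of Tinaja at 5 dpf gave 64, 25 and 92, where 0.606%, 0.191% and 2.55% of all genes were called higher. Leaving out replicate 1 or 3 of Tinaja at 7 dpf gave 44 and 88, against 0.498% and 0.96% of all genes. At an unadjusted p under 0.05 in edgeR these fits gave 183, 179, 183, 151 and 183. With all libraries the number was 195, where 18.9% of all genes passed in either direction. For the refits the share of all genes at this unadjusted threshold was not computed. The median Tinaja effect of edgeR was 1.26 to 1.79 over all 12 libraries left out in turn, against 1.63 with none left out. With the percent of reads outside genes as a covariate the surface count was 96, against 2.91% of all genes. At an unadjusted p under 0.05 in edgeR the surface count was 151, against 197 without the covariate (34.9% of all genes in either direction). The median surface effect of the members was 2.15 with it and 2.23 without. In surface fish this percent was higher in every library at 5 dpf than at 7 dpf, so it is confounded with age there. The part of that share in the rise was not tested further.

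**Figure D2:**
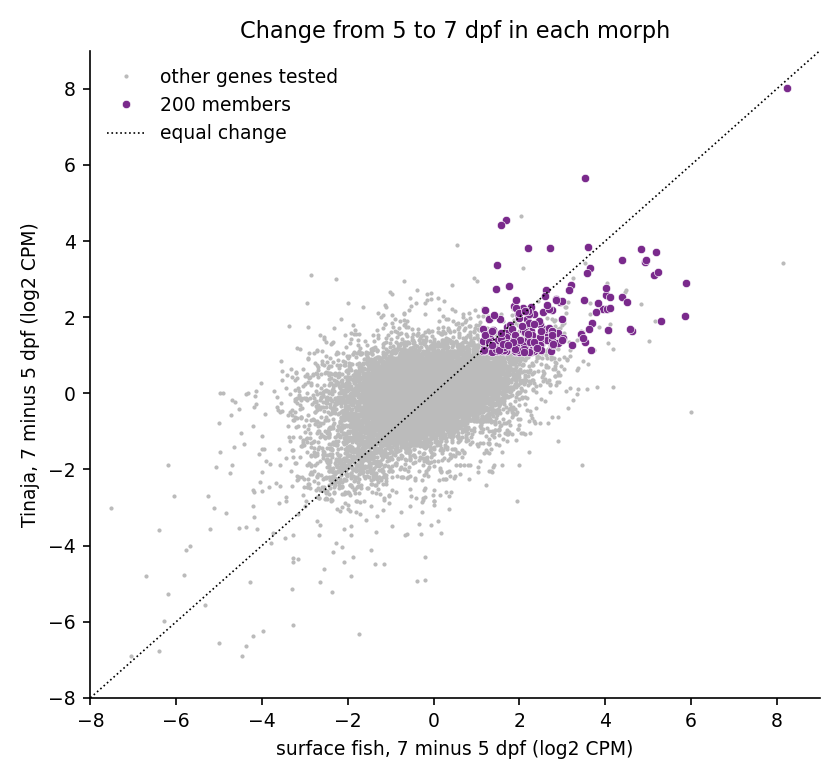
Each point is a gene, with the change in mean log2 CPM from 5 to 7 dpf in surface fish on the x axis and in Tinaja on the y axis; the 200 members are purple, the other genes tested are grey and the dotted line marks equal change. Of the members 160 lie below the line with TMM factors, and 96 would with library totals, and 1 gene stands at 8.23 and 8.03, far from the rest.

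Libraries of a group did not contribute alike. In Tinaja at 7 dpf, replicate 1 held the highest value for 153 of the 200 members and replicate 2 the lowest for 142, where over all genes tested replicate 1 was highest for 39.0% and replicate 2 lowest for 25.3%. The order replicate 1, then 3, then 2 was found for 113 members, or 56.5%, against 16.5% of all genes. Relative to the surface mean at 7 dpf, the median member stood 0.13 log2 units higher in Tinaja replicate 1, at -0.51 in replicate 3 and at -1.03 in replicate 2, where the median over all genes was between -0.01 and 0.02. Replicate 1 was above the surface mean for 118 members and replicate 2 for 31. Over the Tinaja 5 dpf mean the median rise was 2.18, 1.12 and 1.44 in replicates 1, 2 and 3. At 5 dpf the median offset from the surface mean was 0.38, -0.13 and 0.18 in Tinaja replicates 1, 2 and 3. In surface fish the libraries lay closer together, with a median rise over their 5 dpf mean of 2.01, 2.35 and 2.17 in the 7 dpf replicates. The median within-group SD of a member was 0.43 and 0.38 log2 units in surface fish at 5 and 7 dpf and 0.48 and 0.68 in Tinaja, against 0.35, 0.34, 0.37 and 0.45 over all genes tested.

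The distance between the ages followed the same pattern. The gap between the lowest library at 7 dpf and the highest at 5 dpf had a median of 1.32 log2 units in surface fish and 0.56 in Tinaja. The rule required a positive gap in each morph. It was over 1 for 129 members in surface fish and for 30 in Tinaja, against 2.69% and 0.291% of all genes. It was under 0.2 for 4 and 27 members. Over all genes that share was 85.5% and 95.4%, most of them genes whose ages overlapped. For 135 members all 6 libraries at 7 dpf lay above all 6 at 5 dpf, whatever the morph, which held for 2.81% of all genes. The conditions of the choice favor this. In the rest, at least 1 library of 5 dpf in one morph reached a library of 7 dpf in the other.

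The rise was also read in libraries that the choice did not use. The rule was applied with each of the 12 libraries left out in turn, on the same scaled values, and the 200 genes found were then looked up in the library left out. Of these genes 92.5% to 98.5% lay beyond the other age in the right direction in the left-out surface libraries, where 30.3% to 34.7% of all genes did. In Tinaja the shares were 81.5%, 89.0% and 92.0% for replicates 1, 2 and 3 at 5 dpf and 89.0%, 78.0% and 88.0% at 7 dpf, against 24.9% to 33.9% of all genes. The median change in the left-out library was 1.95 to 2.35 log2 units in surface fish and 1.0 to 1.97 in Tinaja. The libraries of the other age were part of the choice, and the scaling used all 12 libraries, so these shares are higher than fully independent libraries would give. All genes were not chosen by the other age, so their share is no matched comparison. The lists found without a library shared 149 to 192 genes with the members, the fewest without Tinaja 7 dpf replicate 1.

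**Figure D3:**
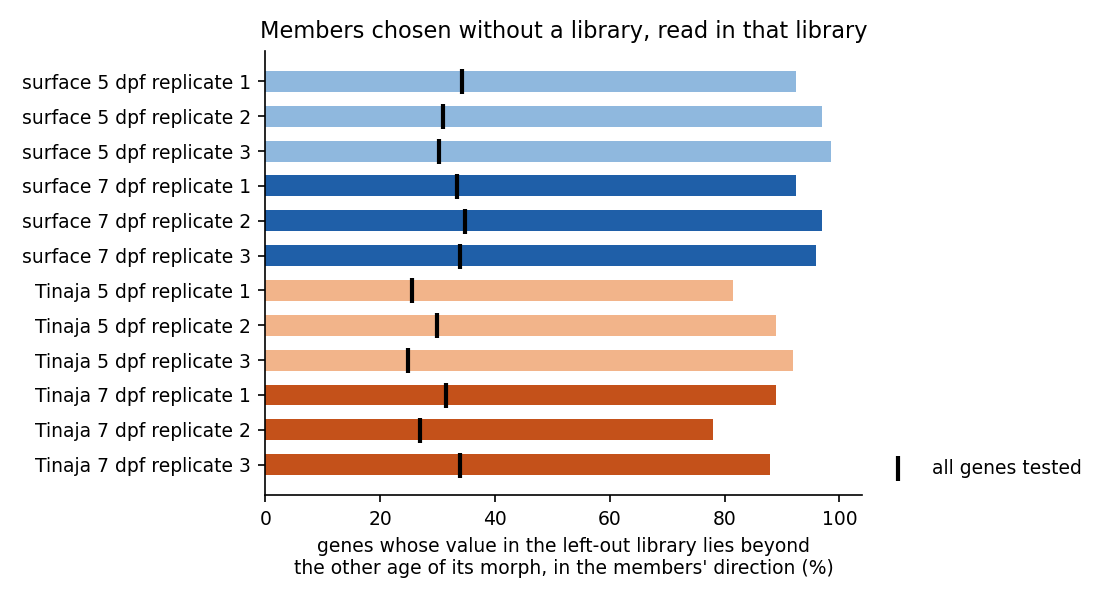
Bars give, for each library on the y axis, the percent of the 200 genes chosen without that library whose value in it lay beyond all 3 libraries of the other age of its morph, in the direction of the members. Black ticks give the same percent over all 17540 genes; the bars run from 78.0% to 98.5% and the ticks from 24.9% to 34.7%.

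By the difference of mean log2 CPM that the rule used, the largest rise in both morphs was that of ENSAMXG00000006152. It was at 4.04, 3.96 and 0.515 CPM in surface replicates 1, 2 and 3 at 5 dpf and at 771, 1208 and 316 CPM at 7 dpf. In Tinaja it was at 5.54, 0.115 and 0.0599 CPM at 5 dpf, the last 2 values on 2 reads and 1 read, and at 536, 27.6 and 302 CPM at 7 dpf. Every 7 dpf library of either morph was above every 5 dpf library, and Tinaja 7 dpf replicate 2 lay far below the other 5 fasted libraries. The log2 fold change of edgeR was 8.07 with a standard error (SE) of 1.68 in surface fish and 7.22 (SE 1.63) in Tinaja, and in Tinaja 11.55 when replicate 1 of 5 dpf was left out and 6.37 when replicate 1 of 7 dpf was. The next gene by the rule, ENSAMXG00000043149, was at 4.41, 9.48 and 2.7 CPM in surface fish at 5 dpf and at 83.5, 165 and 208 CPM at 7 dpf. In Tinaja it was at 44.6, 0.288 and 30.9 CPM at 5 dpf and at 132, 46.9 and 248 CPM at 7 dpf. Its Tinaja groups come within 0.07 log2 units of each other, and Tinaja 5 dpf replicate 2 holds 5 reads of it. The log2 fold change was 4.78 (SE 1.24) in surface fish and 2.49 (SE 1.11) in Tinaja, and limma-voom gave 3.91 in Tinaja. This gene is among the 60 members that did not pass the Tinaja age test in edgeR, and it passed under none of the alternatives. The members with the largest rises were less even between libraries. Over the first 20 members the median SD at 7 dpf was 0.60 log2 units in surface fish and 1.04 in Tinaja, and over the last 50 it was 0.31 and 0.47.

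The rule compared ages within a morph, so the level of a member in Tinaja against surface fish, averaged over both ages, is a contrast it did not use. Reads of both morphs were mapped to the same assembly. Whether sequence differences between the morphs affect mapping, and so the levels compared between them, was not tested. The averaged contrast asks whether members stand at another mean level in Tinaja, and differences of opposite sign at the ages cancel in it. By the edgeR test 59 of the 200 members differed between the morphs at an adjusted p under 0.1, which is 29.5%, against 27.6% of all genes tested. The members were thus called about as often as other genes. Of the 59, 27 were higher in Tinaja, against 15.1% of all genes, and their median log2 fold change was 1.25. The other 32 were lower, against 12.6% of all genes, at a median of -1.16. The median over all 200 was -0.17 and over all genes -0.01. With library totals in place of the scaling factors 21 were higher and 43 lower, where 10.9% and 16.4% of all genes were. Leaving out replicate 1 of Tinaja at 7 dpf gave 22 higher and 56 lower, against 17.7% and 15.4% of all genes. Without replicate 2 of that group 25 were higher and 24 lower, against 13.2% and 10.6% of all genes. Leaving out replicate 1 of Tinaja at 5 dpf, or of surface fish at 7 dpf, gave 16 higher, against 12.1% and 12.3% of all genes.

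Read at each age with TMM factors, members called higher in Tinaja outnumbered those called lower at 5 dpf. At 7 dpf those called lower outnumbered those called higher. With library totals the majority at 5 dpf turned round, with 13 higher and 31 lower, as it did over all genes (4.04% higher and 14.4% lower). With TMM factors, at 5 dpf 35 members passed, where 16% of all genes did. Of these 23 were higher in Tinaja (8.77% of all genes) and 12 lower (7.22%). At 7 dpf 32 passed, where 18.3% of all genes did, 6 of them higher in Tinaja (10.6% of all genes) and 26 lower (7.71%). Both totals are near the share of all genes. Few members made this change themselves. Only 1 was called higher at 5 dpf and lower at 7 dpf, while 5 were called higher at both ages and 10 lower at both. The share of all genes with such paired calls is not given here. The change in balance from higher to lower calls shares its libraries with the larger rise in surface fish described above and is no separate result. Libraries of the morphs did not overlap for 67 members at 5 dpf, 43 of them with Tinaja above (16.4% of all genes) and 24 with surface fish above (16.4%). At 7 dpf Tinaja lay above in 10 (15.6%) and surface fish in 35 (12.2%). Without Tinaja 7 dpf replicate 1 these were 14 (27.7%) and 106 (26.4%). Tinaja lay above at both ages for 6 members (5.99% of all genes) and surface fish for 12 (3.84%), or 8 (8.15%) and 19 (5.62%) without that library, and for 108 members the morphs overlapped at both ages, against 50.5% of all genes.

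Several of these counts at the adjusted threshold moved with single libraries. When replicate 1 of Tinaja at 7 dpf was left out, 78 members were lower in Tinaja at 7 dpf, where 14.1% of all genes were, and 20 at 5 dpf, where 8.81% were. Leaving out replicate 2 or 3 of that group gave 12 and 10 lower at 7 dpf, where calls over all genes fell as well (2.89% and 1.91%). At an unadjusted p under 0.05 in edgeR the numbers lower at 7 dpf were 89, 25 and 25 without replicates 1, 2 and 3. With all libraries 41 were, and in either direction 52 members passed, or 26%, against 28.45% of all genes. For the refits the share of all genes at this unadjusted threshold was not computed. At 7 dpf 2 were higher when its replicate 3 or replicate 1 of surface fish at that age was left out (4.42% and 5.17% of all genes). At 5 dpf the number higher in Tinaja was 10 and 12 when replicate 1 or 3 of the surface group was left out (4.74% and 4.53% of all genes), and 12 when replicate 1 of the Tinaja group was (4.44%). The number lower was 6 when surface replicate 3 or Tinaja replicate 2 of 5 dpf was left out (4.37% and 3.36% of all genes), and 7 when Tinaja replicate 1 was (2.51%). At an unadjusted p under 0.05 in edgeR the numbers higher at 5 dpf in these fits were 30, 28 and 27, against 35 with all libraries. The numbers lower were 19, 11 and 21, against 21 with all libraries. In either direction 56 members passed at 5 dpf with all libraries, or 28%, against 26.04% of all genes.

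**Figure D4:**
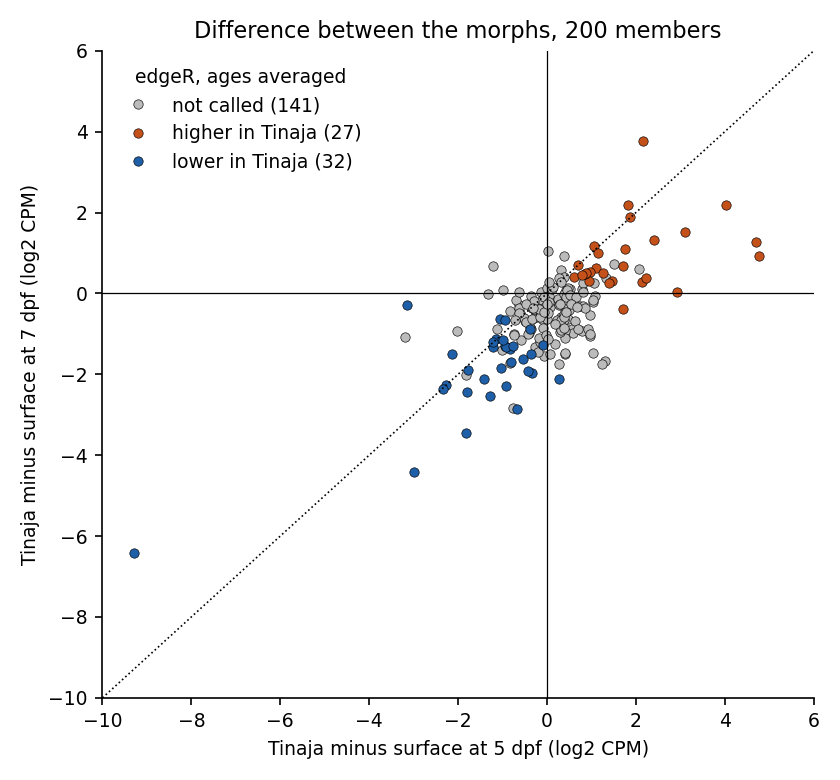
Each point is a member, with the difference of group means, Tinaja minus surface fish in log2 CPM, at 5 dpf on the x axis and at 7 dpf on the y axis; colors give the edgeR call averaged over both ages and the dotted line equal differences. The 27 members called higher and the 32 called lower in Tinaja lie mostly below the dotted line, as do the others, since with TMM factors 160 of 200 rose more in surface fish (96 with library totals).

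Among the members that were higher in Tinaja, at a mean log2 CPM of at least 3, ENSAMXG00000013682 had the largest difference. It was at 0.428, 1.82 and 1.16 CPM in surface fish at 5 dpf and at 17.3, 24.3 and 28.9 CPM at 7 dpf. In Tinaja it was at 40.8, 4.56 and 31.1 CPM at 5 dpf and at 161, 67.2 and 105 CPM at 7 dpf. The morphs did not overlap at either age, and surface fish at 7 dpf reached the Tinaja range of 5 dpf. Averaged over the ages it was 3.36 log2 units higher in Tinaja (SE 0.51, edgeR adjusted p = 0.00133, 0.00912 at most over its alternatives). ENSAMXG00000024355 was at 7.59, 7.73 and 3.61 CPM in surface fish at 5 dpf and at 229, 288 and 215 CPM at 7 dpf. In Tinaja it was at 306, 81.9 and 160 CPM at 5 dpf and at 929, 465 and 471 CPM at 7 dpf. Of the Tinaja libraries of 5 dpf, replicate 1 lay above every surface library of 7 dpf and the other two lay below them. The average difference was 3.1 log2 units (SE 0.36, edgeR adjusted p = 0.000186, 0.000972 at most over its alternatives). The difference was 4.85 (SE 0.55) at 5 dpf and 1.35 (SE 0.47) at 7 dpf.

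Among the members that were lower in Tinaja, at the same minimum level, ENSAMXG00000032562 had the largest difference. It was at 60.4, 92.4 and 84.2 CPM in surface fish at 5 dpf and at 290, 162 and 339 CPM at 7 dpf. In Tinaja it had no read in any library at 5 dpf, at least 1399-fold lower than in surface fish with a floor of 3 counts over the group. At 7 dpf Tinaja replicate 1 held 367 CPM, a level of surface fish, and replicates 2 and 3 held 0.0674 and 0.229 CPM on 1 and 3 reads. Its place among the members rests on those few reads and on that library. It passed the averaged contrast in edgeR with an adjusted p of 0.0449, and without a filter on low counts it did not (0.107, the highest over its alternatives, which reached down to 1.88e-16). With replicate 1 of Tinaja at 7 dpf left out the adjusted p was 5.24e-06 in edgeR. ENSAMXG00000018194 was at 25.7, 20.7 and 16.2 CPM in surface fish at 5 dpf and at 136, 221 and 86.2 CPM at 7 dpf. In Tinaja it was at 6.57, 6.35 and 4.37 CPM at 5 dpf and at 9.23, 16.7 and 12.3 CPM at 7 dpf. In 5 of the 6 Tinaja libraries, fasted ones included, it lay below every surface library of 5 dpf, and the sixth value of 16.7 CPM was above the lowest of them at 16.2 CPM. Averaged over the ages it was lower by 2.69 log2 units (-2.69, SE 0.26, edgeR adjusted p = 5.25e-05, 0.000315 at most over its alternatives). At 7 dpf the difference was -3.53 (SE 0.37).

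**Figure D5:**
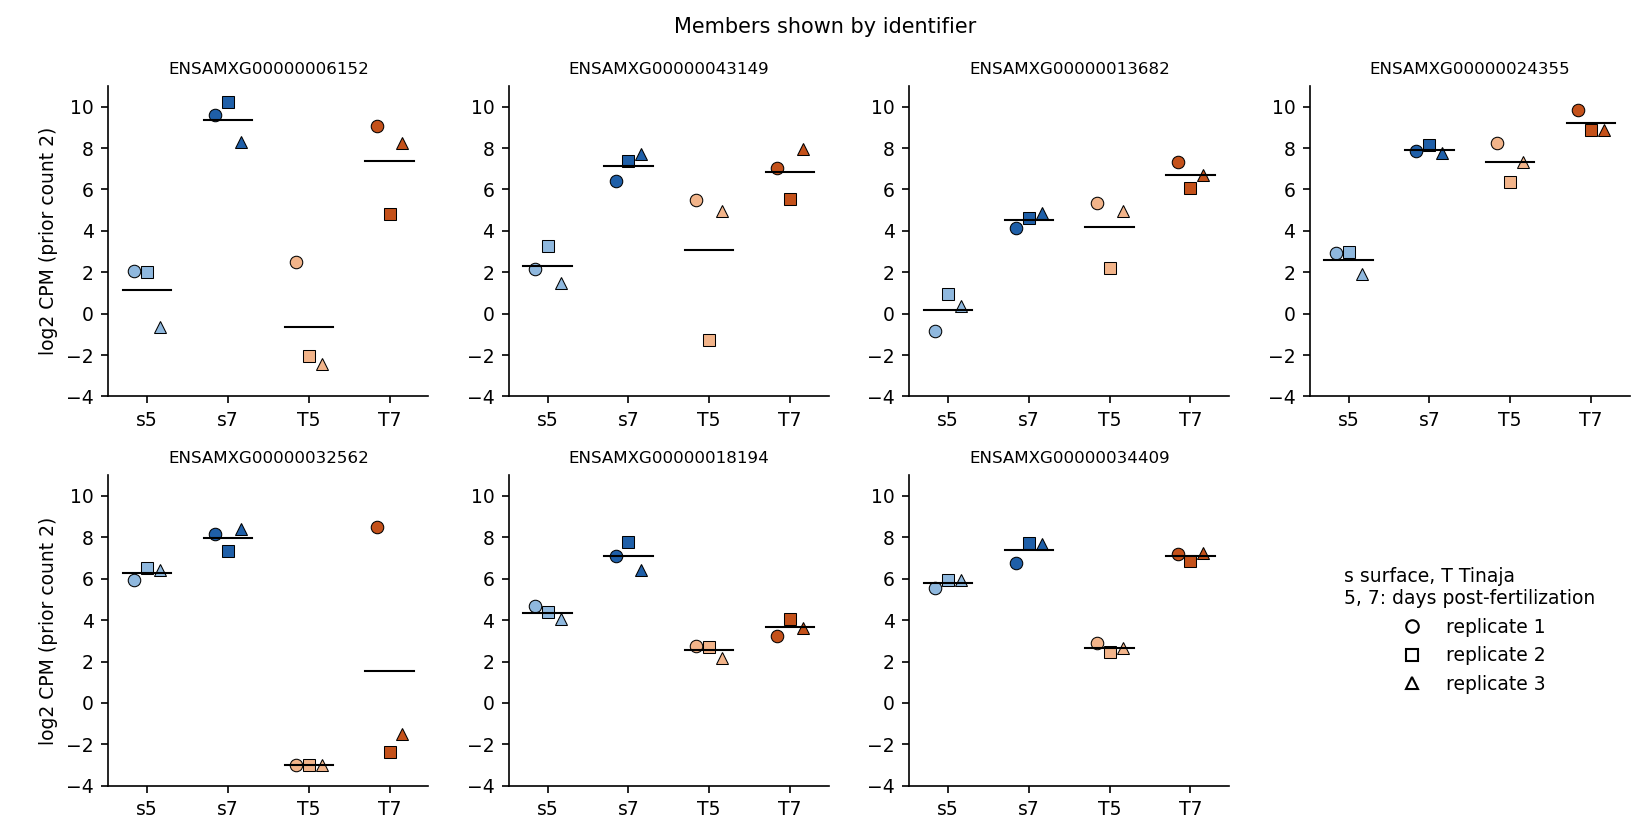
Panels give the log2 CPM (y axis, prior count of 2) of 7 members in each library, by morph and age on the x axis (s, surface fish; T, Tinaja; 5 and 7 dpf); symbols are replicates and lines group means (n = 3). ENSAMXG00000032562 is near the floor in 5 of 6 Tinaja libraries and at 367 CPM in Tinaja 7 dpf replicate 1.

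The difference between the age effects of the morphs was tested across all genes, where 8 of 17540 passed (0.0456%), 0.0342% with the larger effect in Tinaja and 0.0114% with the smaller. This test compares the rises in the 2 morphs, and the rule used both rises, so for members its calls and p-values are a description. A single member passed, ENSAMXG00000034409, which was singled out after its values were seen. It was at 46.0, 61.0 and 61.8 CPM in surface fish at 5 dpf and at 109, 210 and 202 CPM at 7 dpf. In Tinaja it was at 7.24, 5.42 and 6.11 CPM at 5 dpf and at 147, 115 and 149 CPM at 7 dpf. The morphs were far apart at 5 dpf and overlapped at 7 dpf, with a log2 difference of -3.17 (SE 0.30) at the first age and -0.34 (SE 0.27) at the second. The rise was 4.45 log2 units in Tinaja (SE 0.31) and 1.63 in surface fish (SE 0.28), a difference of 2.83 (SE 0.39, edgeR adjusted p = 0.0422, with 0.524 the highest over its alternatives). In edgeR it did not pass when surface replicate 2 or 3 of 5 dpf was left out (adjusted p = 0.134 and 0.115) or Tinaja replicate 1 of that age (0.108), at differences of 2.75, 2.74 and 2.94. It did not pass with the replicate block or the covariate either. At an unadjusted p under 0.05 edgeR counted 35 members, or 17.5%, against 15.8% of all genes. When replicate 1 of Tinaja at 7 dpf was left out, the adjusted test passed for 38 members, against 8.3% of all genes. Without replicate 2 of that group it passed for 1 member, against 0.0325% of all genes. It passed for 4 and 8 members when replicate 2 or 3 of Tinaja at 5 dpf was (0.0616% and 3.01% of all genes), and for 2 when replicate 3 of surface fish at 7 dpf was (0.0727%).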

How the data were processed

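Polyadenylated RNA of 12 liver pools was sequenced with a stranded kit as single reads of 75 bp. The submitters' processing notes name STAR 2.7.3a and RSEM 1.3.0, and the study's methods name astMex_2.0 with the Ensembl 102 annotation. What the authors deposited are whole-number read counts per gene. The 4 rows for reads in no gene stayed out of library sizes and tests. Which strand setting was used for counting is not given in the sources read, so overlapping genes on opposite strands are uncertain, as are near-identical paralogues.

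Counts were fitted in edgeR 4.0.16 (R 4.3.3) with filterByExpr, TMM factors, a mean per group, robust quasi-likelihood dispersions and 8 residual degrees of freedom. The threshold was a Benjamini-Hochberg adjusted p below 0.1 across 17540 genes. DESeq2 1.42.0, limma-voom (limma 3.58.1), other scalings, filters, a covariate, the replicate block and leaving out each library were alternatives. The scripts were tested on simulated data. The members and lists were chosen with earlier results of these data known. Named genes followed a rule: the 2 with the largest smaller rise, and the 2 highest and 2 lowest in Tinaja among those passing, at a mean log2 CPM of at least 3. Lists of pathway genes and cell type markers were not used here, since no identifier matched a name. No library was a copy of another: pairs of replicates differed by a mean chi-square of 27.9 to 154 for each gene. The age difference between morphs, the left-out libraries and the counts by size of rise under other settings were examined after the data were seen.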

Additional observations from a re-analysis of the deposited data

Results flagged for a closer look

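ENSAMXG00000034409 drew attention because its rise from 5 to 7 dpf differed between the morphs in the test of the difference, by 2.83 log2 units in favor of Tinaja (SE 0.39, edgeR adjusted p = 0.0422, n = 3 per group). The rule used the rise in each morph, so the p-value of a member is a description here. All 3 Tinaja libraries at 5 dpf lay below all 9 others. The call was lost with the replicate block (difference of 2.83, adjusted p = 0.109), with reads outside genes as a covariate (3.09, adjusted p = 0.524) and without 3 of the 12 libraries in turn.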

How the results depend on the processing

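No signed value changed sign in the 487 recomputed values, most of which are counts or shares and have no sign. Members passing were 170 to 195 for the surface age effect and 25 to 141 for that of Tinaja over the 12 libraries left out in turn. Over all genes 8.35% to 15.5% and 0.191% to 2.55% were called higher at 7 dpf in these fits. Against surface fish 16 to 27 members were higher and 23 to 56 lower in Tinaja with the ages averaged. Over all genes these calls were 11.94% to 17.74% and 8.486% to 15.39%. At 5 dpf 10 to 29 were higher and 6 to 20 lower, against 4.436% to 10.96% and 2.507% to 8.807% of all genes. At 7 dpf 2 to 7 were higher and 10 to 78 lower, against 4.424% to 15.46% and 1.908% to 14.07%. For the difference of the age effects 0 to 38 passed in edgeR, against 0.02169% to 8.303% of all genes. With all libraries 35 members passed that test at an unadjusted p under 0.05. In these fits 258 to 558 genes met the conditions, with 558 without Tinaja 7 dpf replicate 2, and the genes chosen took 1.01% to 1.59% and 4.23% to 5.64% of the counts in surface fish at 5 and 7 dpf and 0.986% to 1.53% and 3.13% to 4.3% in Tinaja. Without the limit of 200 the 357 genes took 2.28% and 6.74% in surface fish and 2.02% and 5.16% in Tinaja. When libraries were scaled by their totals alone 179 genes met the conditions, the median age effect of the members was 1.51 in surface fish and 1.44 in Tinaja (2.23 and 1.63 with TMM), that of all genes in surface fish -0.77 (-0.05 with TMM), and 13 members were higher and 31 lower in Tinaja at 5 dpf, which turns the majority of 23 and 12 round. With reads outside genes as a covariate 96 members passed for the surface age effect (2.91% of all genes), at a median effect of 2.15. The same fit gave 13 higher and 6 lower in Tinaja at 5 dpf (4.24% and 3.18%). For the difference of the age effects 0 passed in edgeR (25 at an unadjusted p under 0.05, where the share of all genes was not computed). DESeq2 called 10 members higher in Tinaja at 7 dpf (13.02% of all genes) and 16 for the difference of the age effects (4.76%). For that difference the edgeR fits with no filter or a filter of 0.5 CPM called 2 each (0.0613% and 0.0704% of all genes).

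The labels do not say whether the replicate numbers pair the samples. Same-numbered libraries correlated at -0.28 to 0.41 in their deviations from the group means, and 3 of 18 pairs were over 0.1. Those 3 were pairs of the ages within a morph. Between the ages, replicates 1, 2 and 3 correlated at 0.24, -0.13 and -0.07 in surface fish and at 0.18, 0.04 and 0.41 in Tinaja. The block joined replicate numbers across the morphs, and pairing within a morph was not tested. With the replicate number as a block 92 members passed for the Tinaja age effect (1.21% of all genes) and 3 were higher in Tinaja at 7 dpf (7.95%). In that fit 0 passed for the difference of the age effects in edgeR (25 at an unadjusted p under 0.05, where the share of all genes was not computed).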
